A study of Mus musculus with 6 samples.

Results

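The genes described here encode the proteins of the mitochondrial ribosome, called mitochondrial ribosomal proteins. They were taken as all protein-coding genes of the deposited table whose symbol is Mrpl or Mrps followed by a number, with at most 1 letter from a to c after it, which gave 78 genes of the 54532 in the table. Of these, 49 carry a large subunit symbol (Mrpl) and 29 a small subunit symbol (Mrps). RNA was sequenced from cardiosphere-derived cells of C57BL/6 mouse heart ventricle, grown from the epicardium and immortalized with a human telomerase (hTERT) transgene, in 3 control and 3 induced libraries. All 6 libraries came from this 1 immortalized line at passage 30. Induced cells had received 10 µM 5-azacytidine, which blocks DNA methyltransferases and is given to induce cardiac differentiation, for 3 days and were then kept for 4 weeks in IMDM with 2% serum, whereas the labels give no treatment for control cells. Per the methods of the study the line is usually kept in a medium with more serum than this, but the culture time and medium of the sequenced control cells are not given in the sources used here, so that drug, serum and time in culture cannot be told apart. The labels speak of 3 separate samples per group without saying that these were separate cultures, and the p-values then measure only the spread between these samples, which may be technical.

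The mitochondrial ribosome translates the few mRNAs of the mitochondrial genome, all of which encode subunits of the respiratory chain and ATP synthase. Its rRNAs are transcribed inside the mitochondrion, whereas its proteins are encoded in the nucleus, made in the cytosol and imported. Some of these proteins have a bacterial counterpart at the same place in the ribosome and others, called mitochondria-specific here, do not, and cardiac muscle is among the tissues with the highest demand for the respiratory chain.

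Symbol and place in the ribosome do not always match. Mrps30 (standard name mL65) and Mrps18a (mL66) carry small subunit symbols but belong to the large subunit, and Mrps36 is now counted as Kgd4, a subunit of the 2-oxoglutarate dehydrogenase complex rather than of the ribosome. By place, 51 members belong to the large subunit and 26 to the small subunit, and groups by symbol are given first.

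Promoters of the members that moved most are shown first, because they hold sequence motifs that are common in promoters of nuclear genes for mitochondrial proteins. The 280 bases from 250 before to 30 after the transcription start were read from RefSeq for build GRCm38.p6, which matched 69 of the 78 members with 75 promoters. The 2 named genes with the largest falls that hold a searched motif were Mrpl45 and Mrps27, and the 2 with the largest rises were Mrpl33 and Mrpl43. Each sequence runs 5′ to 3′ on the strand of the gene, with the motifs in capitals. Capitals mark the core recognised by NRF1 (GCGCANGCG or its reverse complement) in Mrpl45, the ETS core (CCGGAAG or its reverse complement) bound by GABP in Mrps27, Mrpl33 and Mrpl43, and the YY1 motif AAGATGGCG in Mrps27. The windows are chr11:97315466-97315745 on the plus strand for Mrpl45, chr13:99344536-99344815 on the plus strand for Mrps27, chr5:31613701-31613980 on the plus strand for Mrpl33 and chr19:45006413-45006692 on the minus strand for Mrpl43.
Mrpl45: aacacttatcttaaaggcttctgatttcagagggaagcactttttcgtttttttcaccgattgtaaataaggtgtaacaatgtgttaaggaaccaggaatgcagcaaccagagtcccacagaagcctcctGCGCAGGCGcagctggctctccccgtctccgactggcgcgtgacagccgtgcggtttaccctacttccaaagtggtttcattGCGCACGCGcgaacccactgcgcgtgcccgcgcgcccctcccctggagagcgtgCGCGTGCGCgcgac
Mrps27: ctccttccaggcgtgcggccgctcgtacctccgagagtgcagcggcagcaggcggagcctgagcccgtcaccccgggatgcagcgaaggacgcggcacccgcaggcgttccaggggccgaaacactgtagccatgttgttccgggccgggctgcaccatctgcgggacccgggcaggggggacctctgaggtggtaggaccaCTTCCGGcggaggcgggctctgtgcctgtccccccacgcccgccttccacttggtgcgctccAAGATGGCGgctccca
Mrpl33: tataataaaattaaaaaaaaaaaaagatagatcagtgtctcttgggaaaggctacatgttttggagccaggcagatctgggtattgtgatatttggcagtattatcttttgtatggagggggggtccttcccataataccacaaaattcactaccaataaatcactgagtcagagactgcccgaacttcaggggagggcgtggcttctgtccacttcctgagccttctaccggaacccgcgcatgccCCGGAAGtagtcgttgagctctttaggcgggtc
Mrpl43: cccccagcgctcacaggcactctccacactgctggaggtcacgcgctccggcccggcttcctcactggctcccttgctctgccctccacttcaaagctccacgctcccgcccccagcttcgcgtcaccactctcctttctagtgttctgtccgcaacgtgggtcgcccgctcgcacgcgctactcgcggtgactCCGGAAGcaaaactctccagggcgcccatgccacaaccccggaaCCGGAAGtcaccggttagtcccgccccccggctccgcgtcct

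The NRF1 core, searched on both strands, was in 16 of the 75 member promoters (21.3%), beside 6.0% of all 32851 mouse promoters of this window and 12.4% of the 12720 promoters of tested coding genes. The ETS core was in 24 member promoters (32.0%), beside 8.45% of all and 16.2% of those of tested coding genes. The YY1 motif was in 4 member promoters (5.33%), beside 1.05% of all and 2.08% of those of tested coding genes. The E-box CACGTG bound by MYC was in 7 member promoters of 5 members (9.33%), beside 6.79% of all and 9.39% of those of tested coding genes. The TATA box TATAAA was in 5 (6.67%), beside 13.1% of all and 6.75% of those of tested coding genes. An NRF1 or ETS core was in the promoters of 35 members, and 5 members had both. Over all tested genes, 32.2% were called lower and 32.6% higher in induced cells (edgeR, adjusted p under 0.05). Of the 16 members with an NRF1 core, 7 were called lower and 1 higher in induced cells, with a median log2 fold change of -0.18, beside -0.07 in the 53 without it. Of the 24 with an ETS core, 8 were called lower and 3 higher, with a median of -0.05, beside -0.08 in the 45 without it. A match only says that these letters stand in the window.

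Of the 78 members, 77 had enough reads to be tested, and Mrpl53 had 0 reads in all 6 libraries. In the annotation, 88.0% of the exon bases of Mrpl53 overlap another gene, mainly Gm42688 on the same strand, and how such reads were counted is not given in the sources used here. The libraries held 19041133 to 19823369 reads, which places the level that 0 reads allow at 0.151 to 0.158 CPM (read counts relative to library size, with TMM factors for levels) when 3 reads are taken as the limit. Limits of this kind cover counting error only. All other members were well above that limit, from 7.50 CPM for Mrps18c to 94.2 CPM for Mrpl17 as means of control cells.

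All changes in the mRNAs of the mitochondrial ribosome were below 2-fold, and more of the members fell than rose in induced cells. By the edgeR quasi-likelihood test with a Benjamini-Hochberg adjusted p under 0.05, 38 of the 77 tested members were called (49.4%), beside 64.8% of all 14246 tested genes. Higher calls came to 7 members, beside 32.6% of all tested genes, and lower calls to 31 members (40.3%), beside 32.2% of all tested genes. The higher calls numbered 4 without control 1, 4 without induced 1 and 12 without induced 2. The median log2 fold change of the members was -0.08, beside -0.01 over all tested genes, and the members ranged from -0.79 to 0.50. None of the 77 members changed 2-fold or more, beside 17.2% of all tested genes. The median size of change, regardless of direction, was 0.18 on the log2 scale in the members and 0.36 in all tested genes. In 36 members (46.8%) the 3 induced libraries lay wholly above or below the 3 control libraries, 31 of them below, beside 68.6% of all tested genes in either direction. In bulk RNA, fewer cells that express a gene and less of its RNA per cell cannot be told apart.

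**Figure D1:**
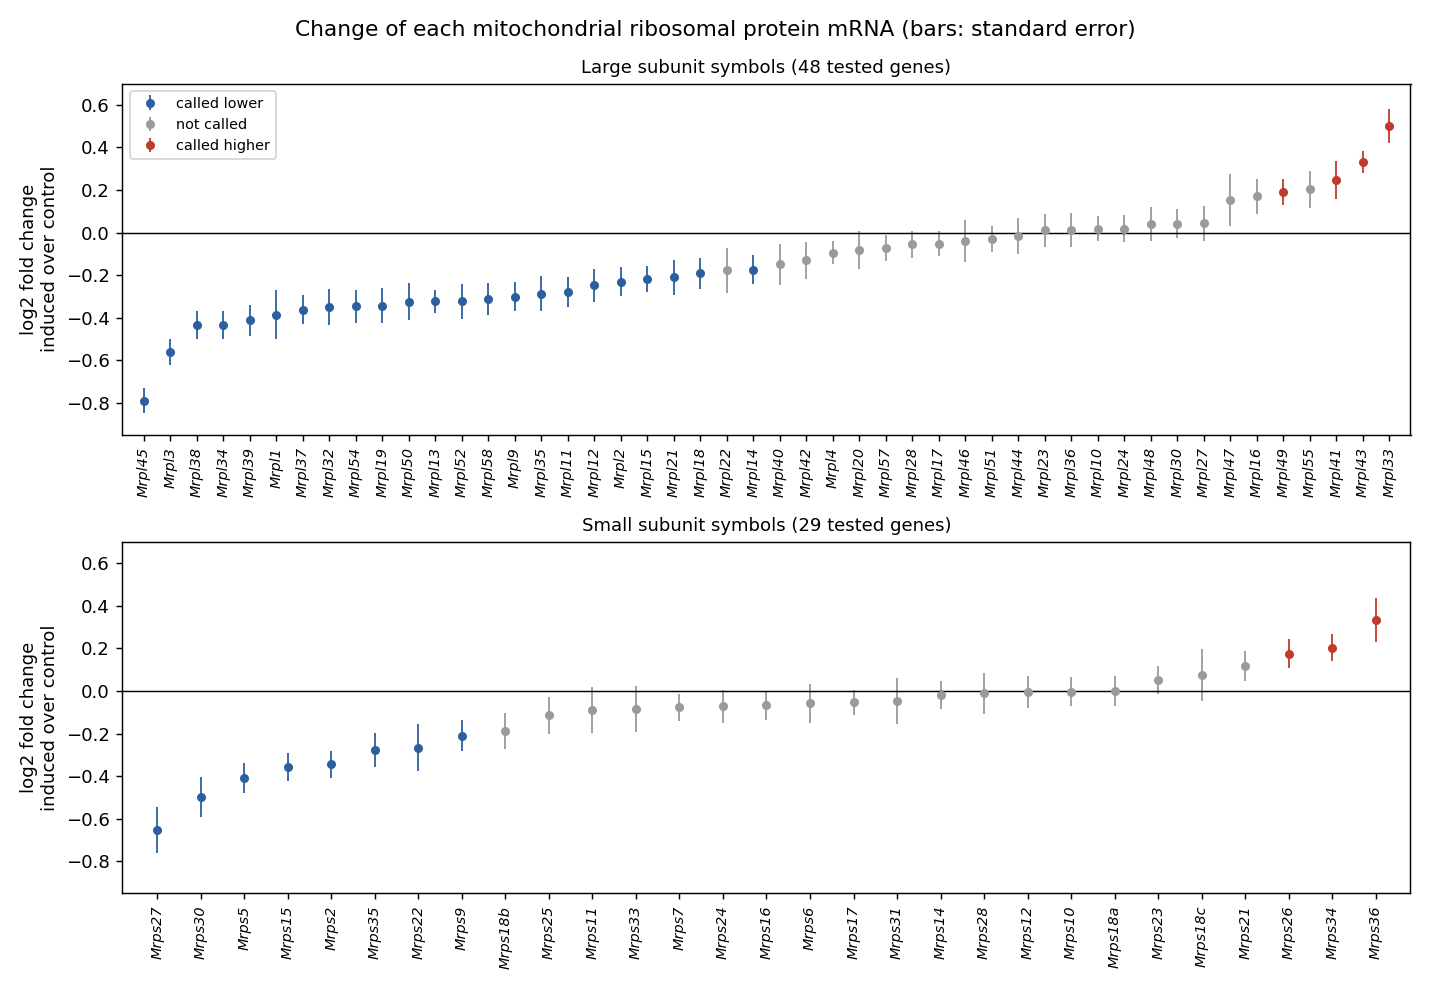
The log2 fold change of each tested member (induced over control, vertical axis) is shown by symbol, sorted by value, with bars for the standard error and colours for the call. Lower calls reach -0.79 at Mrpl45 and higher calls reach 0.50 at Mrpl33, and no member passes a log2 size of 1.

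Lower calls outnumbered higher calls in both subunits, but their share in the small subunit (27.6%) was below that over all tested genes (32.2%), and in the large subunit it was 47.9%. Of 48 tested large subunit members, 23 were lower, 4 were higher and 21 were not called, with a median log2 fold change of -0.16. Of 29 small subunit members, 8 were lower, 3 were higher and 18 were not called, with a median of -0.07. Without induced 2, 8 large subunit members were higher and the large subunit median was -0.10, and the small subunit had 1 higher call without control 1 or without induced 1. Grouped by place in the ribosome, 24 of 50 large subunit members were lower and 4 higher (median -0.16), and 7 of 26 small subunit members were lower and 2 higher (median -0.07). The difference between the subunits was not tested, because the members were grouped with earlier results of these data known.

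Bacterial homologs and mitochondria-specific proteins both held lower, higher and uncalled genes, beside 32.2% lower and 32.6% higher over all tested genes. Of 46 members with bacterial homologs, 19 were lower and 1 (Mrpl33) was higher, with a median log2 fold change of -0.08. Of 30 tested mitochondria-specific members, 12 were lower and 5 were higher, with a median of -0.12. Within the small subunit by place, 4 of 16 bacterial homologs were lower and 0 higher, and 3 of 10 mitochondria-specific proteins were lower and 2 higher. Within the large subunit by place, 15 of 30 bacterial homologs were lower and 1 higher, and 9 of 20 mitochondria-specific proteins were lower and 3 higher.

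Summed over all members of the large subunit, control libraries held 1816, 1881 and 1829 CPM and induced libraries 1707, 1530 and 1745 CPM. The means were 1842 ± 34.5 and 1661 ± 115 (SD, n = 3), so that the sum fell by 9.83%, and the groups did not overlap. Without induced 2 the large subunit sum fell by 6.29%. The summed small subunit level was 867, 900 and 895 CPM in control libraries and 879, 777 and 874 CPM in induced libraries, with means of 887 ± 17.9 and 843 ± 57.6 (SD, n = 3). Here the groups overlapped, with induced 1 and induced 3 above the lowest control, and the sum fell by 4.97%, or by 1.22% without induced 2. The ratio of small to large subunit reads within a library, which does not depend on library scaling, was 0.477, 0.478 and 0.490 in control and 0.515, 0.507 and 0.501 in induced libraries. Every induced library thus had a higher ratio than every control library (0.482 ± 0.00675 against 0.508 ± 0.00709, SD, n = 3). With members grouped by place, the ratio was 0.422, 0.422 and 0.433 in control and 0.453, 0.447 and 0.439 in induced libraries, again without overlap. By place the large subunit sum fell by 9.83% and the small subunit sum fell by 5.54%.

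**Figure D2:**
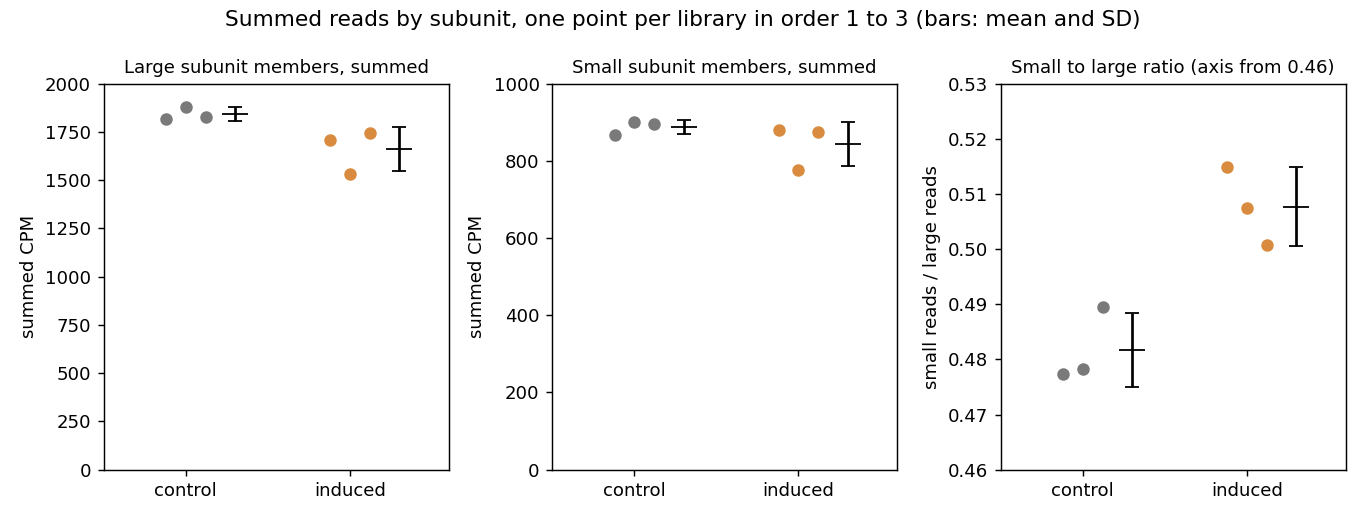
Summed CPM of large and of small subunit members and the ratio of small to large subunit reads are shown with a point per library and bars for mean and SD, the ratio on an axis that starts at 0.46. The large subunit sum fell from 1842 to 1661 CPM, the small subunit sum overlapped between groups, and the 3 ratios of induced cells lie above all 3 ratios of control cells.

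The library induced 2 stood apart from the other induced libraries in these genes. It was the lowest of the 3 induced libraries in 58 of 77 members (75.3%), beside 37.0% of all tested genes. Its summed level over all members was 2307 CPM, against 2586 and 2619 CPM in induced 1 and induced 3 and 2683 to 2781 CPM in control libraries. The summed level of cytosolic ribosomal protein mRNAs was also lowest there, at 41260 CPM against 48260 and 51310 CPM. Total reads of induced 2 were 19041133, and its part in the results was measured by leaving it out. Without it, 27 members were lower and 12 were higher. Of the 31 lower calls, 4 were lost (Mrpl14, Mrpl18, Mrpl21 and Mrps22), and 5 higher calls were gained (Mrpl16, Mrpl27, Mrpl30, Mrpl55 and Mrps21). The median log2 fold change was then -0.10 in the large and 0.02 in the small subunit.

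**Figure D3:**
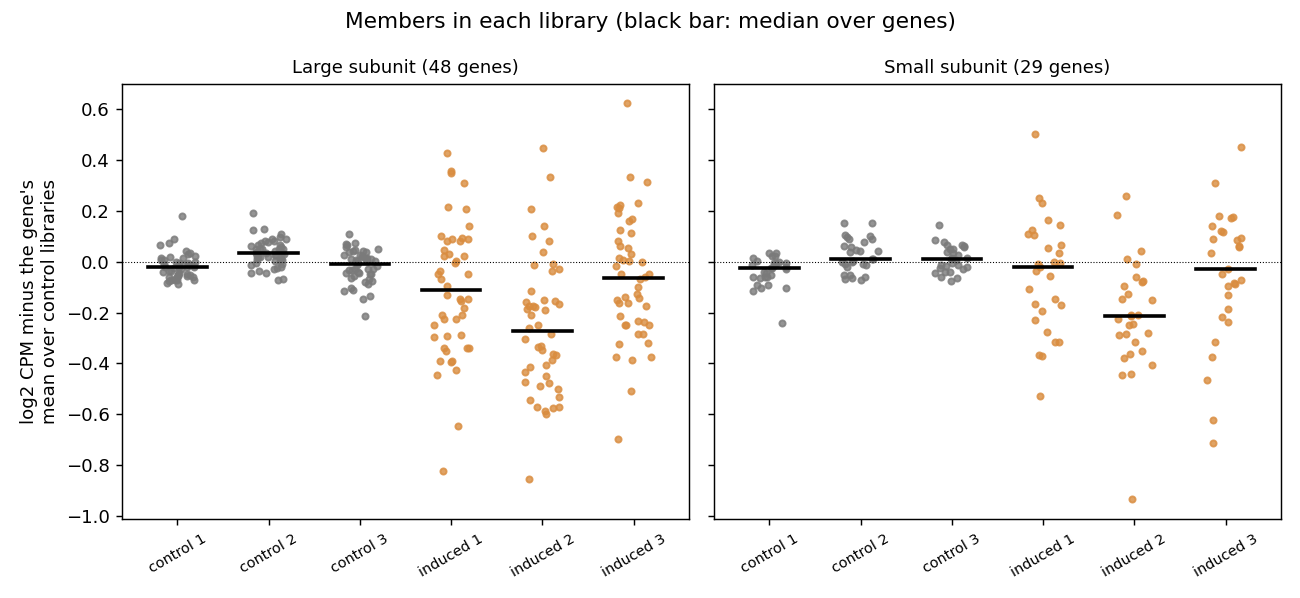
Each point is 1 tested member in 1 library, as log2 CPM minus the mean of that gene over the control libraries, with black bars for the median over genes. The medians of induced 2 were -0.27 in the large and -0.21 in the small subunit, below those of induced 1 (-0.11 and -0.02) and induced 3 (-0.06 and -0.03).

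The largest fall was that of Mrpl45 (ENSMUSG00000018882, 11:97315716-97329920), which encodes mL45, a mitochondria-specific protein near the exit of the peptide tunnel that helps to hold the ribosome at the inner membrane. Mrpl45 stood at 59.4, 62.6 and 63.7 CPM in control libraries and at 35.02, 34.2 and 38.2 CPM in induced libraries. All induced libraries lay below all control libraries. Its level fell by 42.2% (log2 fold change -0.79 ± 0.06 SE, edgeR adjusted p = 1.13e-09). No exon of Mrpl45 overlaps another gene.

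Mrps27 (ENSMUSG00000041632, 13:99344786-99415562) encodes mS27, an RNA-binding protein of the small subunit with pentatricopeptide repeats. Its values were 24.3, 24.0 and 23.4 CPM in control libraries and 18.6, 12.5 and 14.6 CPM in induced libraries. The groups did not overlap, and the induced libraries were more spread than the controls. The log2 fold change was -0.65 ± 0.11 (SE), with an edgeR adjusted p of 3.54e-05. Of its exon bases, 24.2% overlap 6430562O15Rik on the opposite strand.

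Mrpl3 (ENSMUSG00000032563, 9:105053239-105079888) encodes uL3m, a bacterial homolog in the body of the large subunit. It was at 50.1, 46.6 and 46.2 CPM in control libraries and at 30.5, 32.9 and 33.4 CPM in induced libraries. The groups were clear of each other (log2 fold change -0.56 ± 0.06 SE, edgeR adjusted p = 2.72e-07).

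Mrps30 (ENSMUSG00000021731, 13:118378381-118387252), the large subunit protein mL65 in spite of its symbol, stood at 17.6, 20.1 and 18.6 CPM in control libraries and at 13.0, 14.7 and 12.2 CPM in induced libraries. The induced libraries were all lower, with a log2 fold change of -0.50 ± 0.10 (SE) and an edgeR adjusted p of 1.62e-04. Mrpl38 (ENSMUSG00000020775, 11:116131817-116138868) encodes mL38, part of the central protuberance of the large subunit. It was at 51.6, 53.3 and 56.6 CPM in control libraries and at 42.2, 35.8 and 41.5 CPM in induced libraries. Again no induced library reached the controls (log2 fold change -0.44 ± 0.07 SE, edgeR adjusted p = 1.22e-05).

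The remaining lower calls included many proteins shared with bacteria. In the large subunit these were Mrpl34, Mrpl1, Mrpl32, Mrpl19, Mrpl13, Mrpl9, Mrpl35, Mrpl11, Mrpl12, Mrpl2, Mrpl15, Mrpl21, Mrpl18 and Mrpl14, from -0.43 in Mrpl34 to -0.17 in Mrpl14 on the log2 scale. Besides Mrpl45, Mrpl38 and, by place, Mrps30, the mitochondria-specific large subunit members called lower were Mrpl39, Mrpl37, Mrpl54, Mrpl50, Mrpl52 and Mrpl58, between -0.41 (Mrpl39) and -0.31 (Mrpl58). In the small subunit, Mrps5 (-0.41), Mrps15 (-0.36), Mrps2 (-0.35), Mrps35 (-0.28), Mrps22 (-0.27) and Mrps9 (-0.21) were lower.

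Rises were fewer, and the largest was that of Mrpl33 (ENSMUSG00000106918, 5:31596935-31664384), which encodes bL33m, a small bacterial homolog of the large subunit. Mrpl33 stood at 19.5, 20.9 and 21.0 CPM in control libraries and at 27.5, 27.9 and 31.5 CPM in induced libraries. The groups did not overlap, and the level rose by 41.6% (log2 fold change 0.50 ± 0.08 SE, edgeR adjusted p = 1.89e-05). The RefSeq start used for its promoter lies inside this gene model, and 3.56% of its exon bases overlap Gm43809.

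Mrpl43 (ENSMUSG00000025208, 19:45005014-45006442) encodes mL43, a mitochondria-specific protein of the large subunit. It was at 50.6, 49.5 and 52.3 CPM in control libraries and at 64.7, 64.0 and 63.1 CPM in induced libraries. The spread within both groups was small beside the gap between them (log2 fold change 0.33 ± 0.05 SE, edgeR adjusted p = 1.98e-05). Of its exon bases, 33.4% overlap Twnk, which encodes the mitochondrial DNA helicase, on the opposite strand.

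Mrps34 (ENSMUSG00000038880, 17:24895116-24897502) encodes mS34, needed for a stable small subunit. It was at 32.0, 33.6 and 34.5 CPM in control libraries and at 39.2, 39.9 and 36.3 CPM in induced libraries. The log2 fold change was 0.20 ± 0.06 (SE, edgeR adjusted p = 0.00981) and the groups did not overlap, but 77.8% of its exon bases overlap Mapk8ip3 or Nme3, so this value is uncertain. Mrps34 lost its call with a correction for gene length (adjusted p = 0.0853) and without control 1 (adjusted p = 0.0518).

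Mrpl49 (ENSMUSG00000007338, 19:6053630-6057751), which encodes mL49 of the large subunit, was at 36.4, 37.3 and 34.4 CPM in control libraries and at 41.6, 39.8 and 42.1 CPM in induced libraries. The groups did not overlap (log2 fold change 0.19 ± 0.06 SE, edgeR adjusted p = 0.0104). The call was lost with a correction for gene length (adjusted p = 0.0544) and without control 3 (adjusted p = 0.0609). The other 3 higher calls, Mrps36 (0.33), Mrpl41 (0.25) and Mrps26 (0.18), had groups that overlapped.

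Several members have roles beyond the ribosome or carry symbols that mislead. Mrps36, the dehydrogenase subunit, was at 23.6, 22.8 and 24.8 CPM in control libraries and at 33.6, 23.6 and 32.4 CPM in induced libraries. Induced 2 lay among the controls (log2 fold change 0.33 ± 0.10 SE, edgeR adjusted p = 0.00928), and the adjusted p was 0.0726 without induced 1 and 0.0517 with limma on log2(FPKM + 1). Mrpl12, which encodes the stalk protein bL12m and also binds the mitochondrial RNA polymerase, was at 48.8, 51.2 and 48.6 CPM in control libraries and at 44.5, 35.3 and 45.3 CPM in induced libraries. It was lower in every induced library (log2 fold change -0.25 ± 0.08 SE, edgeR adjusted p = 0.00808), and without induced 2 the log2 fold change was -0.14. Mrpl58, once called Ict1, encodes mL62, a peptidyl-tRNA hydrolase that frees stalled ribosomes. It was at 36.6, 40.3 and 40.0 CPM in control libraries and at 33.7, 27.5 and 33.0 CPM in induced libraries, without overlap (log2 fold change -0.31 ± 0.08 SE, edgeR adjusted p = 0.00161).

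The paralogs Mrps18a, Mrps18b and Mrps18c are related to the bacterial protein S18 and sit at different places in the ribosome. Only Mrps18c keeps the place of S18, and the other two are counted here as mitochondria-specific. Mrps18a, in the large subunit as mL66, was at 36.5, 37.9 and 35.7 CPM in control libraries and at 36.7, 33.1 and 40.4 CPM in induced libraries. Mrps18b, in the small subunit as mS40, was at 16.1, 17.2 and 16.2 CPM and at 14.7, 14.3 and 14.5 CPM. Mrps18c, the counterpart of the bacterial protein at its original place (bS18m), was at 7.50, 7.44 and 7.56 CPM and at 8.19, 8.52 and 7.02 CPM. Of the exon bases of Mrps18b, 30.5% overlap Gm16279 on the opposite strand. Of those of Mrps18c, 23.2% overlap Gm43511 on the same strand. None of the 3 paralogs passed the edgeR test (adjusted p 0.987, 0.0623 and 0.605), although the groups of Mrps18b did not overlap (log2 fold change -0.19 ± 0.09 SE). Mrps18b passed with limma on log2(FPKM + 1) (adjusted p = 0.0209) and on log2(FPKM + 0.1) (0.0198), with library totals alone (0.0287) and with a correction for gene length (0.00798).

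Other members had nearly equal means in both groups. Mrps10, which encodes uS10m, averaged 34.3 ± 1.84 CPM in control and 34.2 ± 2.00 CPM in induced libraries (SD, n = 3). Mrps12, the homolog of the bacterial protein at the decoding centre, averaged 43.4 ± 4.13 and 43.3 ± 4.21 CPM. Mrps28 averaged 17.9 ± 1.20 and 17.8 ± 1.99 CPM. All 3 had groups that overlapped, with edgeR adjusted p of 0.967, 0.965 and 0.924.

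Levels can be compared between genes only per length, and for this the deposited FPKM values were used. Mean FPKM over the 6 libraries ran from 2.02 to 67.6 over the 48 tested large subunit members (median 14.1) and from 2.39 to 69.7 over the 29 small subunit members (median 9.90), with medians of 13.6 and 10.3 by place, although most of these proteins are present in a single copy per ribosome. The most abundant mRNAs by FPKM were Mrps21 at 69.7, Mrpl34 at 67.6 and Mrpl52 at 66.1, followed by Mrpl2 at 48.2. In the small subunit Mrps12 (41.5 FPKM) and Mrps24 (33.0 FPKM) came after Mrps21. At the low end stood Mrpl47 at 2.02, Mrpl1 at 2.30, Mrps30 at 2.39 and Mrps35 at 2.56 FPKM. FPKM uses the merged length of all exons of a gene, from 607 to 8631 bases in these members, so a long gene model with few reads in part of its exons lowers the value.

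The most abundant members differed in how they moved. Mrpl34, which encodes the short bacterial homolog bL34m, went from 77.4 ± 1.73 to 57.8 ± 5.57 FPKM (SD, n = 3), with an edgeR adjusted p of 1.78e-05 on counts. Mrpl52 went from 73.2 ± 1.34 to 59.0 ± 9.66 FPKM (edgeR adjusted p = 0.00202 on counts, log2 fold change -0.32, or -0.21 without induced 2). Mrpl2 went from 51.8 ± 2.31 to 44.5 ± 4.47 FPKM (edgeR adjusted p = 0.00581 on counts, log2 fold change -0.23, or -0.14 without induced 2). Mrps21 stood at 66.6 ± 0.519 and 72.8 ± 9.03 FPKM and did not pass the test (edgeR adjusted p = 0.162), while without induced 2 its adjusted p was 8.44e-04. Of the scarce members, Mrpl1 and Mrps35 were lower (log2 fold change -0.39 ± 0.12 and -0.28 ± 0.08 SE) and Mrpl47 was not called (0.15 ± 0.12 SE). Across the 77 members, Spearman's rho of the log2 fold change with gene length was -0.25, beside 0.06 over all tested genes, and with mean CPM it was 0.05 in both. These are descriptions across genes of the same 6 libraries, and genes are not independent replicates.

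Many members share a promoter region with a neighbour on the other strand. A coding gene starting on the other strand within 1000 bases of the member's start was found for 33 of the 78 members (42.3%), beside 15.9% of the 12646 tested coding genes. Of 30 such pairs with both genes tested, both were called lower in 6, both higher in 1 and the calls were opposite in 4. The neighbours in these pairs were called lower in 16, higher in 5 and not called in 9. Over all tested genes, 32.2% were called lower and 32.6% higher, and whether paired calls exceed what these shares give was not tested. Spearman's rho of the log2 fold changes within pairs was 0.08 over these 30 pairs. Mrpl43 and Twnk start 116 bases apart, and Mrpl43 rose whereas Twnk fell from 26.8 ± 3.12 to 19.96 ± 1.03 CPM (log2 fold change -0.43 ± 0.09 SE, edgeR adjusted p = 3.78e-04). Mrpl49 rose beside Fau (log2 fold change -0.17 ± 0.06 SE), which encodes a cytosolic ribosomal protein, and Mrps34 rose beside Eme2 (log2 fold change -0.68 ± 0.20 SE). Mrps27 and Ptcd2, which start 81 bases apart, both fell (Ptcd2 log2 fold change -0.41 ± 0.10 SE).

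The proteins of the mitochondrial ribosome with other symbols gave 3 lower and 0 higher of 5 tested genes. The shares over all tested genes were 32.2% lower and 32.6% higher. Dap3, the GTP-binding protein mS29 of the small subunit, fell from 68.4 ± 1.31 to 46.3 ± 1.75 CPM (log2 fold change -0.56 ± 0.05 SE, edgeR adjusted p = 3.49e-08). Ptcd3 (mS39) and Gadd45gip1 were lower too, with log2 fold changes of -0.44 ± 0.07 and -0.41 ± 0.09 (SE). Chchd1 (-0.06) and Aurkaip1 (0.14) were not called.

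Genes that build or serve the mitochondrial ribosome also gave more lower than higher calls, beside 32.2% lower and 32.6% higher over all tested genes. Of 25 assembly factors and rRNA-modifying enzymes, 10 were lower and 3 higher (median log2 fold change -0.23). Among them the GTPase Noa1 was at -1.02 ± 0.08 (SE) and the rRNA methyltransferases Mrm1 and Mrm3 at 0.57 ± 0.08 and -0.65 ± 0.14. Of 15 translation factors and other proteins that serve mitochondrial translation, 8 were lower and 0 higher (median -0.17). The lower calls included the elongation factors Tufm (-0.57 ± 0.05 SE) and Tsfm (-0.41 ± 0.10 SE) and the insertase Oxa1l (-0.67 ± 0.07 SE). Of 20 genes for mitochondrial tRNA synthetases and for subunits of the tRNA amidotransferase, 11 were lower and 1 higher (median -0.29). Of 8 genes that copy and transcribe mitochondrial DNA, 6 were lower and 0 higher (median -0.35), with the RNA polymerase Polrmt at -0.61 ± 0.07 (SE).

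The tested RNAs that the mitochondrion itself transcribes were called higher or were not called. The rRNAs, around which the member proteins assemble, were both higher in induced cells. The small subunit rRNA mt-Rnr1 averaged 161 ± 3.40 and 190 ± 15.5 CPM (log2 fold change 0.23 ± 0.06 SE, edgeR adjusted p = 0.00140), and the large subunit rRNA mt-Rnr2 averaged 385 ± 28.7 and 460 ± 55.3 CPM (0.26 ± 0.07 SE, edgeR adjusted p = 0.00366). Of the 13 mitochondrial mRNAs, 12 were tested, 4 were higher and 0 lower (median 0.06). The shares over all tested genes were 32.6% higher and 32.2% lower. Of the higher calls, mt-Nd4l averaged only 2.43 CPM in control and 6.11 CPM in induced libraries. Control means ran from 0.23 CPM in mt-Atp8 and 0.56 CPM in mt-Nd3 to 7171 CPM in mt-Co1. The methods of the study name an oligo(dT) method among those for making libraries. Its effect on these rRNA and mRNA values was not tested.

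Among 9 regulators of mitochondrial gene expression, 4 were lower and 3 higher, beside 32.2% lower and 32.6% higher over all tested genes. Myc and the coactivator Pprc1 were lower (log2 fold change -1.65 ± 0.06 and -0.34 ± 0.06 SE), and Esrra, a nuclear receptor that acts on genes of oxidative metabolism, was higher (0.39 ± 0.06 SE). Nrf1 was not called (-0.15 ± 0.07 SE, edgeR adjusted p = 0.0717), and of the GABP subunits Gabpa was lower (-0.20 ± 0.06) and Gabpb1 higher (0.25 ± 0.08). Yy1 was lower (-0.14 ± 0.06 SE). Ppargc1a was higher (0.70 ± 0.25 SE), at the low level of 1.68 CPM in control and 2.74 CPM in induced libraries.

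For comparison, 77 of 80 tested cytosolic ribosomal protein genes were lower and 1 was higher, with a median log2 fold change of -0.52, beside -0.08 in the mitochondrial members. All 10 genes of a proliferation list were lower, with a median of -1.74, and their summed level was 896 to 924 CPM in control and 323 to 334 CPM in induced libraries. The part of this lower proliferation level in the members' values was not tested.

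**Figure D4:**
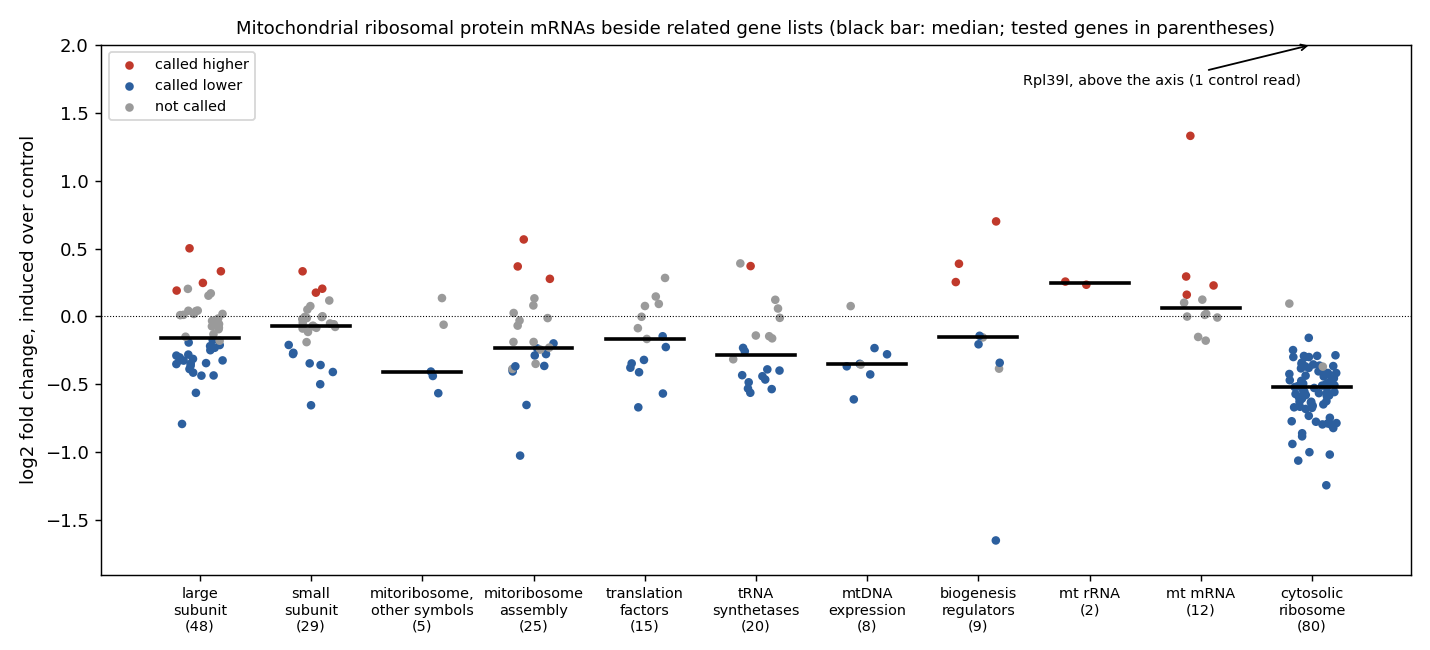
Log2 fold changes (induced over control, vertical axis) of the tested members by subunit symbol stand beside those of the related lists, with black bars for medians and colours for the call. Medians run from -0.52 in the cytosolic ribosome to 0.25 in the mitochondrial rRNAs, and Rpl39l, with 1 read in control libraries, lies above the axis.

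Markers of other cell types were read from the same libraries. The 5 leukocyte markers had 0 reads in all libraries, and the 4 endothelial markers had 22 reads in control and 44 in induced libraries in all. The 7 cardiomyocyte markers summed to 13.1 to 16.1 CPM in control and 59.0 to 62.5 CPM in induced libraries, mostly from Tnnt2 (13.1 ± 1.62 and 58.2 ± 1.92 CPM). Of 5 cardiosphere or mesenchymal markers, 3 were higher and 2 lower, and of 4 epicardial markers 3 were higher and 1 lower. Over all tested genes the shares were 32.6% higher and 32.2% lower. The part of these shifts in the members' values was not tested.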

How the data were processed

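RNA sequencing covered 3 control and 3 induced libraries of 1 immortalized mouse cell line, grouped by their labels. The authors deposited raw read counts per gene and library together with FPKM values, which equalled count over gene length and 1 depth per library within 0.1% in all genes with enough reads for this check. The submitters' processing notes name HISAT2 2.0.5, featureCounts 1.5.0-p3, DESeq2 1.16.1 and the build mm10. The methods of the study name other versions, replicate numbers and culture times than the labels, and low glucose DMEM in place of IMDM for the induction. The labels were followed. A strand setting is not given in the sources used here. The deposited fold changes, p-values and Gene Ontology tables were not used.

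Members and gene lists were chosen with earlier results of these data known, and the cytosolic ribosome list was added after the data were seen. The counts went into edgeR 4.0.16 (R 4.3.3), where filterByExpr (minimum count 10, minimum total 15) kept 14246 genes. After TMM scaling, induced and control cells were compared by the two-sided quasi-likelihood test with Benjamini-Hochberg adjustment at 0.05. Values are mean ± SD over 3 libraries of TMM-scaled CPM unless FPKM is named. In simulated counts with 200 changed genes of 14246, the fit called 85% of changes of log2 size 1 and 64% of those of 0.5. Far fewer genes changed there than were called in the data. Smaller changes, like those of most members, were not simulated. Alternatives were DESeq2 1.42.0, limma 3.58.1 on log2(FPKM + 1) and log2(FPKM + 0.1), scaling by median-ratio size factors or by totals alone, a stricter filter or none, a replicate block, a gene length offset (loess span 0.4), subunits by place, a threshold of 0.01 and the omission of single libraries. Same-numbered libraries did not deviate together (correlations -0.00, -0.02 and 0.03), so the numbers were not taken as pairs.

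Total reads were 19041133 to 19823369 per library. No 2 libraries of a group were alike within sampling noise (chi-square per degree of freedom 2.56 to 8.91). Coordinates are those of the deposited table, 98.3% of which match GENCODE M21 on GRCm38, including 73 of 78 members. Exon overlaps were taken from GENCODE M21, neighbours from the deposited coordinates and promoters from RefSeq on GRCm38.p6. Named members were the largest non-overlapping rises and falls with at least 10 CPM (only 4 rises met this), the most and least abundant of each subunit by FPKM, those with the largest adjusted p, and members named for their roles. Of the related lists, up to 3 genes with the smallest p were named. Chchd1, Aurkaip1, Nrf1, Gabpa, Gabpb1, Yy1, Ppargc1a and Rpl39l were named after their values were seen, as were the members given only by log2 fold change. The named mitochondrial mRNAs other than mt-Nd4l were also chosen in this way. Protein sequences were not used here.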

Additional observations from a re-analysis of the deposited data

How the results depend on the processing

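The members called lower numbered within 1.5 times the reported 31 under every alternative run. The 7 higher calls became 4 at an adjusted p of 0.01 and 4 to 12 when single libraries were left out, with 4 without control 1, 4 without induced 1 and 12 without induced 2. Large subunit higher calls became 2 at an adjusted p of 0.01 and ranged from 3 to 8 without single libraries. Small subunit higher calls were 1 with limma on log2(FPKM + 1) and ranged from 1 to 4. The small subunit median ranged from -0.08 to 0.02 without single libraries, positive without induced 2, and was -0.12 with the gene length offset and -0.11 with library totals alone. The difference of medians, small minus large, was 0.06 with the gene length offset, which shifted the median of all tested genes by -0.06, and 0.08 to 0.14 without single libraries. In a fit with the replicate block, 7 members were higher and 31 lower, the same 38 members, and no call changed. Of 390 values of the 26 named members, 6 lost and 7 gained the call. The sign changed in 26 values of 5 members, none of them called, by less than 1 standard error in 23 of these and by more in 3, namely Mrps12 (0.07 without control 2), Mrps24 (-0.17 to 0.03 without single libraries, positive without induced 2) and Mrps28 (0.09 without induced 2). The causes were not tested. Small changes of members may have been missed at this depth and number of libraries, and Mrpl53 had no reads. Small changes such as those of Mrps34 and Mrpl49 lie near the threshold.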
